A study of Homo sapiens with 6 samples.

Results

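The complement genes described here are C1R, C1S, C3, CFB, CFI, CD46, CD55, CD59 and SERPING1, components of the complement cascade and their membrane-bound or secreted regulators that glial cells can make. They were taken by symbol, through their Ensembl identifiers, from a table of 21429 genes. Of the 9 symbols, 8 had a row and all 8 passed the filter on low values used for testing; CFB matched no row and was not analysed here.

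The study asked how lowering RPL13, a protein of the large ribosomal subunit, alters the transcripts of U251 cells, an established human glioma line. All 6 cultures carried a stable mutant amyloid precursor protein (APP, K670N/M671L) whose expression was induced with doxycycline at 1 µg/mL. The siRPL13 group (3 libraries) was electroporated with an siRNA against RPL13 (2.5 µL at 20 µM) and the siNC group (3 libraries) with a control siRNA, and RNA was taken 72 h later. The libraries are labelled as biological replicates, with no word on separate cultures or on whether the line is a single clone, so p-values measure the spread between these libraries.

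Complement is a cascade of plasma and tissue proteins that marks targets with fragments of C3 and ends in a membrane pore. The classical pathway starts when the proteases C1r and C1s are activated on C1q, and the alternative pathway amplifies C3 cleavage through factor B. Host cells hold the cascade in check with C1 inhibitor (SERPING1), factor I (CFI) and the membrane proteins CD46, CD55 and CD59. In the brain, astrocytes and microglia are sources of these proteins, and interferons and inflammatory cytokines are known to raise several of the component genes.

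Promoter sequences are shown for the 3 genes that passed the test in the comparison without the library labelled siRPL13 replicate 3 (CFI, CD46 and CD59) and for C1R, whose library profile is set beside interferon-stimulated genes below. They are RefSeq sequences of build GRCh38.p14, 250 bases before to 50 after a transcript start, written 5′ to 3′ on the gene's strand. Of the 9 symbols, 6 matched that table. Capitals mark matches to any of 5 motifs searched on both strands: the gamma-activated site core TTCNNNGAA, the interferon-stimulated response element core (GAAA, any 2 bases, GAAA), an NF-kB core (GGG, any 3 bases, TTCC), a C/EBP core TTGCNNAA and the CCAAT box.
C1R (chr12:7091844-7092143, minus strand): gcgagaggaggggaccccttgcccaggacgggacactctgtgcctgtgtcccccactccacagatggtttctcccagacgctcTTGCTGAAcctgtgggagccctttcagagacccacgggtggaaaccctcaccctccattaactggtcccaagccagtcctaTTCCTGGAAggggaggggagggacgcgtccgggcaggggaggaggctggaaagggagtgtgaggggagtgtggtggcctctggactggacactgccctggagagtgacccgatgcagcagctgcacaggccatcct
CFI (chr4:109801950-109802249, minus strand): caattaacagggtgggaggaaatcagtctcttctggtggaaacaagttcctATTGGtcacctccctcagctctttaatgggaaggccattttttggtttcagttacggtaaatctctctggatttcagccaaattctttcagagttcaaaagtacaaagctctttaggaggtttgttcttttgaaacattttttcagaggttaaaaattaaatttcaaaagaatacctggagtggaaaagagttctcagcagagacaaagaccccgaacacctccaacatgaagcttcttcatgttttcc
CD46 (chr1:207751788-207752087, plus strand): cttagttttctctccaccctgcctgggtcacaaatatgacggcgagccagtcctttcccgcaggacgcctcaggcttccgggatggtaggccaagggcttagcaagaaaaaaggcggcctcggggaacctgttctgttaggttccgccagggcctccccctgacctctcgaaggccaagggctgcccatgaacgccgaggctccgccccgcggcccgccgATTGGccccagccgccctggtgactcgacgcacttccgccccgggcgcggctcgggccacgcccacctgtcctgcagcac
CD59 (chr11:33736430-33736729, minus strand): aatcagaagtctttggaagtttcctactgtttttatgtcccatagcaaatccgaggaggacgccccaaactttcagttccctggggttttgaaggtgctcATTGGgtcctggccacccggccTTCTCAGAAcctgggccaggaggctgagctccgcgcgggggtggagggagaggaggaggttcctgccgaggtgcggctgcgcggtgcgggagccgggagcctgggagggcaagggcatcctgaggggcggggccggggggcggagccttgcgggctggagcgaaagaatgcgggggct
The shown C1R window, the second of 2 listed for that gene, held 1 gamma-activated site core and 1 C/EBP core, whereas the first held no gamma-activated site core. The CD59 window, the first of 4, held 1 gamma-activated site core and 1 CCAAT box, and 2 of the other CD59 windows held no gamma-activated site core. The CFI and CD46 windows held 1 CCAAT box each, and no 2 of the matches in the 4 windows shown overlapped. Over 35116 promoters of the same length, 7.66% held the gamma-activated site core, 10.5% the C/EBP core and 34.6% the CCAAT box. Counted by gene, with a match in any listed window, the shares were 9.38%, 12.7% and 39.7% of 27305 genes. The response element core was in 3.57% of all promoters and the NF-kB core in 6.52%, and neither was in the 4 windows shown. CD46 and CD59 windows were rich in G and C (67.0% and 64.3%), whereas the CFI window held 39.3%, against a median of 58.7% over all promoters. A motif match is a description of the letters and not evidence of binding.

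Levels are regularized-log (rlog) values, a log2-scale measure of expression scaled for library size, in which a gene with few reads is drawn towards its own mean. Read depth per library is unknown, and fold changes of weakly expressed genes are understated on this scale. RPL13 itself stood at 13.03, 13.12 and 14.09 in siRPL13 replicates 1 to 3 and between 14.05 and 14.18 in the siNC libraries, with a log2 difference of -0.72 ± 0.24 (SE) over 6 libraries and -1.06 ± 0.06 over 5. The targeted transcript was thus not lowered in the library labelled siRPL13 replicate 3. The difference of each member is therefore given for all 6 libraries and for the 5 that remain without it. For other genes the 5-library difference is given, in some cases beside that over 6 libraries. Tests were made with limma across 15327 genes, with Benjamini-Hochberg adjustment over all of them, and "rose" and "fell" are used for an adjusted p under 0.05 in the 5-library comparison. Of 12 astrocyte and glioma markers 8 had a mean rlog above 5, among them GFAP at 14.73 to 15.50 and VIM at 15.90 to 16.33 over the 6 libraries. AQP4 had no row, and SLC1A2, ALDH1L1 and CHI3L1 had means of 1.10, 0.79 and 0.23. Of 12 microglia and leukocyte markers, 8 matched no row, among them PTPRC, AIF1 and TYROBP, and CD68 lay at 0.36 to 0.40 and ITGAM at 0.19 to 0.22. CD14 had a mean of 3.62, and CSF1R stood at 4.88, 4.99 and 5.22 in siRPL13 replicates 1 to 3, against 5.02, 5.05 and 5.00 in siNC, highest in the library labelled siRPL13 replicate 3. The summed level of the leukocyte markers with a row was 5.46 to 5.70 in siRPL13 and 5.52 to 5.59 in siNC.

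The membrane regulators and factor I were the most abundant members and the classical pathway proteases the least. Per kilobase of exon (rlog minus the log2 of the exonic length in kilobases), CD59 stood highest at a mean of 9.60 over the 6 libraries, followed by CFI at 8.47, CD46 at 8.36 and CD55 at 7.76. SERPING1 followed at 5.81, C3 at 3.94, C1R at 3.17 and C1S at 2.81. The ranges over the 6 libraries overlapped between CFI and CD46 and between C1R and C1S, and between no other neighbours in this order. These 4 genes were therefore separated from C1 inhibitor and the components by more than the spread between libraries.

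**Figure D1:**
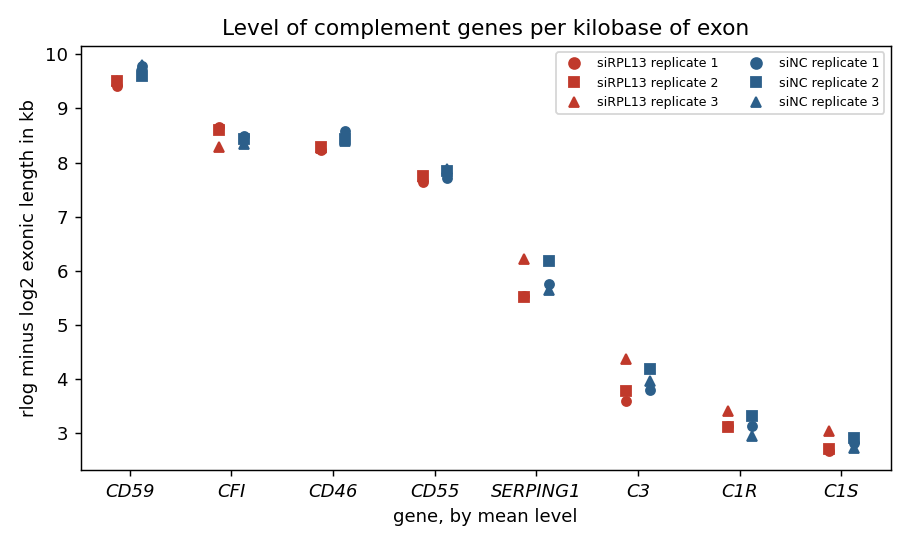
Level of 8 complement genes as rlog minus the log2 of the exonic length in kilobases (vertical axis, log2 scale), 1 point per library, siRPL13 in red left of siNC in blue, genes ordered by mean. CD59 lies between 9.41 and 9.80 in all libraries and C1S between 2.67 and 3.03.

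Across all 6 libraries none of the 8 complement genes passed the test, as 0 of all 15327 genes did (0% called, with 1275 genes at an unadjusted p under 0.05). CD46 and CD59 were the 2 members whose siRPL13 values all lay below every siNC value, an arrangement seen in 6.90% of all genes tested. In the 5-library comparison CD46 and CD59 fell and CFI rose. That is 2 of 8 lower against a background of 10.7% of all genes tested and 1 of 8 higher against 8.42%. With 8 genes these shares rest on 1 or 2 of them, and the other 5 members did not pass. The median log2 difference of the 8 genes was -0.09 over 6 libraries and -0.17 in the 5-library comparison, against -0.00 over all genes tested in both.

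CD59 (ENSG00000085063, GRCh38 chromosome 11, 33703010 to 33736491, minus strand) encodes the membrane protein that blocks assembly of the terminal pore. It stood at 12.78, 12.89 and 12.88 rlog in siRPL13 replicates 1 to 3, against 13.17, 12.98 and 13.17 in siNC. The groups did not overlap, and the library labelled siRPL13 replicate 3 lay with the other siRPL13 libraries although its RPL13 level was that of siNC. Mean values were 12.85 ± 0.06 in siRPL13 and 13.11 ± 0.11 in siNC (SD, n = 3 each), and over 6 libraries the difference was -0.26 ± 0.07 on the log2 scale (SE; adjusted p 0.589, limma). CD59 fell by 0.27 ± 0.07 in the 5-library comparison (adjusted p 0.0170, limma), to 82.9% of the siNC level once the rlog difference was converted from log2. The exact permutation test of 3 against 3 libraries gave p = 0.1 for CD59 and for CD46, the smallest value that design allows.

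CD46 (ENSG00000117335, chromosome 1, 207752057 to 207795513, plus strand) encodes the membrane cofactor with which factor I cuts C3b and C4b. Its rlog values were 11.36, 11.40 and 11.39 in siRPL13 replicates 1 to 3, against 11.71, 11.55 and 11.51 in siNC. All siRPL13 libraries again lay below all siNC libraries, with siNC replicate 1 the highest. The mean was 11.38 ± 0.02 in siRPL13 and 11.59 ± 0.11 in siNC (SD, n = 3 each), and the log2 difference of -0.21 ± 0.07 (SE) had an adjusted p of 0.589 (limma). CD46 fell by 0.21 ± 0.06 in the 5-library comparison (adjusted p 0.0386, limma), to 86.3% of the siNC level. Its call was lost with quantile scaling of the libraries (adjusted p 0.0775), without the filter on low values (0.0598) and without a variance trend (0.0651, limma).

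CD55 (ENSG00000196352, chromosome 1, 207321376 to 207386804, plus strand) encodes decay-accelerating factor, which dissociates the enzymes that cleave C3. It lies 365 kb from CD46 on the same strand. CD55 stood at 10.21, 10.31 and 10.29 rlog in siRPL13, against 10.27, 10.41 and 10.44 in siNC, so that siNC replicate 1 lay among the siRPL13 values. The log2 difference was -0.10 ± 0.07 (SE) over 6 libraries (adjusted p 0.644, limma) and -0.11 ± 0.07 in the 5-library comparison (adjusted p 0.249, limma). The 95% interval in the 5-library comparison, -0.26 to 0.03, included both no difference and a difference as large as that of CD46 (-0.21).

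Some markers of the glioma cells had siRPL13 values below every siNC value, as CD46 and CD59 did. Over the 11 astrocyte and glioma markers with a row, a summed level was taken (log2 of the summed linear values). It was 17.41 to 17.50 in siRPL13, against 17.57 to 17.80 in siNC. Such a sum mostly follows the most abundant markers and does not describe all 11. Library medians of the 8 tested markers, each set against its own siNC average, overlapped between groups. These medians were -0.02, -0.09 and -0.15 for siRPL13 replicates 1 to 3. For siNC replicates 1 to 3 they were 0.17, -0.06 and -0.11. Of 8 tested markers, 3 (GFAP, VIM and NES) had siRPL13 values below every siNC value, where 6.90% of all genes did, GFAP by a gap of 0.0009. In the 5-library comparison VIM and NES, 2 of the 8, fell, where 10.7% of all genes tested fell. The other 6 did not pass, CD44 and SOX9 having differences of 0.07 and 0.06, and with all 6 libraries 0 passed. VIM, the intermediate filament vimentin, fell by 0.31 ± 0.07 (SE, log2) in the 5-library comparison (adjusted p 0.00910, limma). That call was lost without siRPL13 replicate 1 (difference -0.33) or siRPL13 replicate 2 (-0.29), and the NES call without siRPL13 replicate 1 (-0.29). Each of these fits leaves a single siRPL13 library. The part of these markers in the CD46 and CD59 results was not tested. In such bulk libraries fewer cells of a kind and less RNA per cell cannot be told apart.

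**Figure D2:**
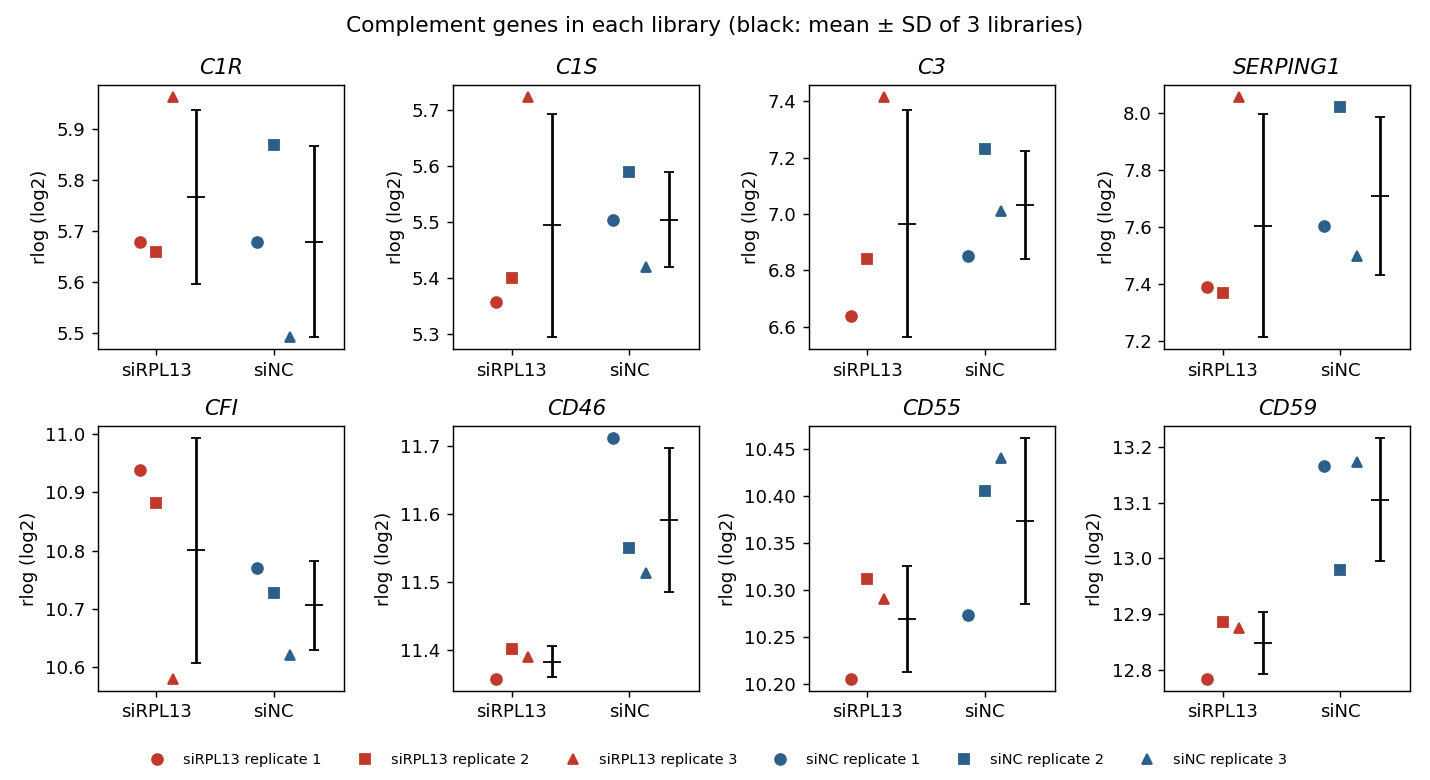
Level of 8 complement genes as rlog values (vertical axes, log2 scale, not starting at 0), 1 point per library with siRPL13 in red left of siNC in blue, the shape giving the replicate number and black bars the mean ± SD of 3 libraries. CD46 and CD59 show no overlap between groups, while C1R, C1S, C3 and SERPING1 are highest in the library labelled siRPL13 replicate 3.

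CFI (ENSG00000205403, chromosome 4, 109740694 to 109802179, minus strand) encodes factor I, the secreted protease that inactivates C3b and C4b. Its rlog values were 10.94, 10.88 and 10.58 in siRPL13 replicates 1 to 3, against 10.77, 10.73 and 10.62 in siNC. The library labelled siRPL13 replicate 3 was the lowest of the 6 and the other siRPL13 libraries were the highest. The mean was 10.80 ± 0.19 in siRPL13 and 10.71 ± 0.08 in siNC (SD, n = 3 each), a log2 difference of 0.09 ± 0.10 (SE, adjusted p 0.753, limma). CFI rose by 0.20 ± 0.06 in the 5-library comparison (adjusted p 0.0347, limma), to 115% of siNC. Leaving out siNC replicate 3 as well ended that call (0.16 ± 0.06, adjusted p 0.0996, limma), and for CD59 the adjusted p without it was 0.0508. The CFI call was also lost without the filter on low values (adjusted p 0.0558, limma) and without a variance trend (0.0535). Each of the 3 calls, CD59, CD46 and CFI, was lost when siRPL13 replicate 1 or siRPL13 replicate 2 was left out, which leaves a single siRPL13 library assumed to vary like the rest. The adjusted p for CD59, CD46 and CFI was then 0.237, 0.297 and 0.309 without replicate 1 and 0.0675, 0.154 and 0.137 without replicate 2 (limma).

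SERPING1 (ENSG00000149131, chromosome 11, 57597387 to 57614853, plus strand) encodes C1 inhibitor, the serpin that inactivates C1r and C1s. Its rlog values were 7.39, 7.37 and 8.06 in siRPL13 replicates 1 to 3, against 7.60, 8.02 and 7.50 in siNC. The siRPL13 libraries thus held both ends of the range, with the library labelled siRPL13 replicate 3 the highest of all. Over 6 libraries the log2 difference was -0.10 ± 0.20 (SE, adjusted p 0.873, limma), and in the 5-library comparison -0.33 ± 0.13 (adjusted p 0.0987, limma). Without siNC replicate 3 as well, the 5-library difference was -0.43 ± 0.12 with an adjusted p of 0.0437 (limma), past the threshold. Without siNC replicate 2 instead, the difference was -0.17 ± 0.08 (adjusted p 0.187, limma). SERPING1 passed under 2 of 13 alternatives to the 5-library comparison.

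C3 (ENSG00000125730, chromosome 19, 6677704 to 6730562, minus strand) encodes the central component whose cleavage all pathways share. It stood at 6.64, 6.84 and 7.42 rlog in siRPL13 replicates 1 to 3, against 6.85, 7.23 and 7.01 in siNC. As for SERPING1, the ends of the range were both siRPL13 libraries, and the library labelled siRPL13 replicate 3 was the highest. The log2 difference was -0.07 ± 0.19 (SE, adjusted p 0.918, limma) over 6 libraries and -0.29 ± 0.11 (adjusted p 0.0875, limma) in the 5-library comparison. It passed the threshold there under 3 of 13 alternatives. Among them were the fits without siNC replicate 1 (-0.38 ± 0.10, adjusted p 0.0226, limma) and with library weights (-0.30 ± 0.09, adjusted p 0.0305, limma). Without siNC replicate 2 the C3 difference was -0.19 ± 0.10 (adjusted p 0.215, limma).

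C1R (ENSG00000159403, chromosome 12, 7080199 to 7092607, minus strand) and C1S (ENSG00000182326, chromosome 12, 6988259 to 7071032, plus strand) encode the paired proteases of the C1 complex, and the genes end facing each other 9.17 kb apart. C1R stood at 5.68, 5.66 and 5.96 rlog in siRPL13 replicates 1 to 3, against 5.68, 5.87 and 5.49 in siNC. C1S stood at 5.36, 5.40 and 5.72 in siRPL13, against 5.50, 5.59 and 5.42 in siNC. Both genes were highest in the library labelled siRPL13 replicate 3 and, within siNC, highest in replicate 2 and lowest in replicate 3. For C1R the log2 difference was 0.09 ± 0.11 (SE, adjusted p 0.804, limma) over 6 libraries and -0.01 ± 0.10 (adjusted p 0.950, limma) in the 5-library comparison, with a 95% interval of -0.22 to 0.20. For C1S it was -0.01 ± 0.10 (adjusted p 0.978, limma) and -0.12 ± 0.07 (adjusted p 0.239, limma), with a 5-library interval of -0.28 to 0.03. Exons of C1R overlap those of C1RL on the same strand, and the same holds for C1S with EMG1, CFI with AC126283.2 and CD59 with AL049629.2, so reads there cannot be assigned with certainty.

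**Figure D3:**
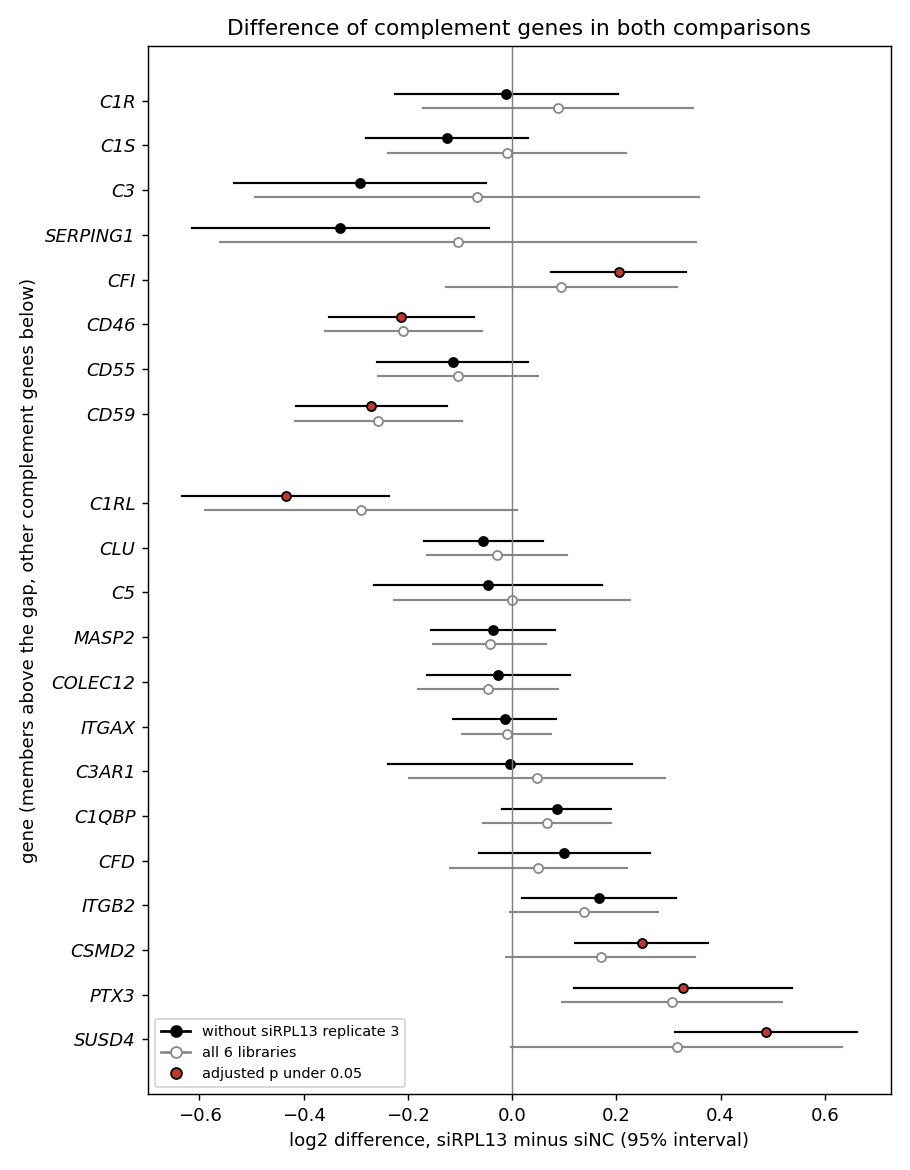
Log2 difference, siRPL13 minus siNC (horizontal axis), with 95% intervals from limma for 8 complement genes above the gap and 13 other complement genes below it, filled black circles for the comparison without the library labelled siRPL13 replicate 3, open grey circles for all 6 libraries and red filling for an adjusted p under 0.05. CD59 lies at -0.27 and CFI at 0.20 in the 5-library comparison, and no interval of the 6-library comparison is marked red.

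Among the components, C1R, C1S and C3, together with the inhibitor gene SERPING1, were each highest in the library labelled siRPL13 replicate 3, that is 4 of 8 members, where 22.0% of all genes tested were highest in that library. A list of 25 interferon-stimulated genes, all of them highest in that library, had a median relative to the siNC mean of -1.30, -0.84 and 0.81 in siRPL13 replicates 1 to 3, against 0.16, 0.37 and -0.56 in siNC replicates 1 to 3. The order of the 6 libraries for C1S was the same as for this list median, an order found in 1.98% of all genes tested. The orders of C1R, C3 and SERPING1 differed from it, and C1R was lowest in siNC replicate 3. The complement genes moved over a narrower range, 0.37 for C1S, 0.47 for C1R, 0.69 for SERPING1 and 0.78 for C3 on the log2 scale, against 2.11 for the list median. The part of the interferon-stimulated genes in the levels of these complement genes was not tested.

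**Figure D4:**
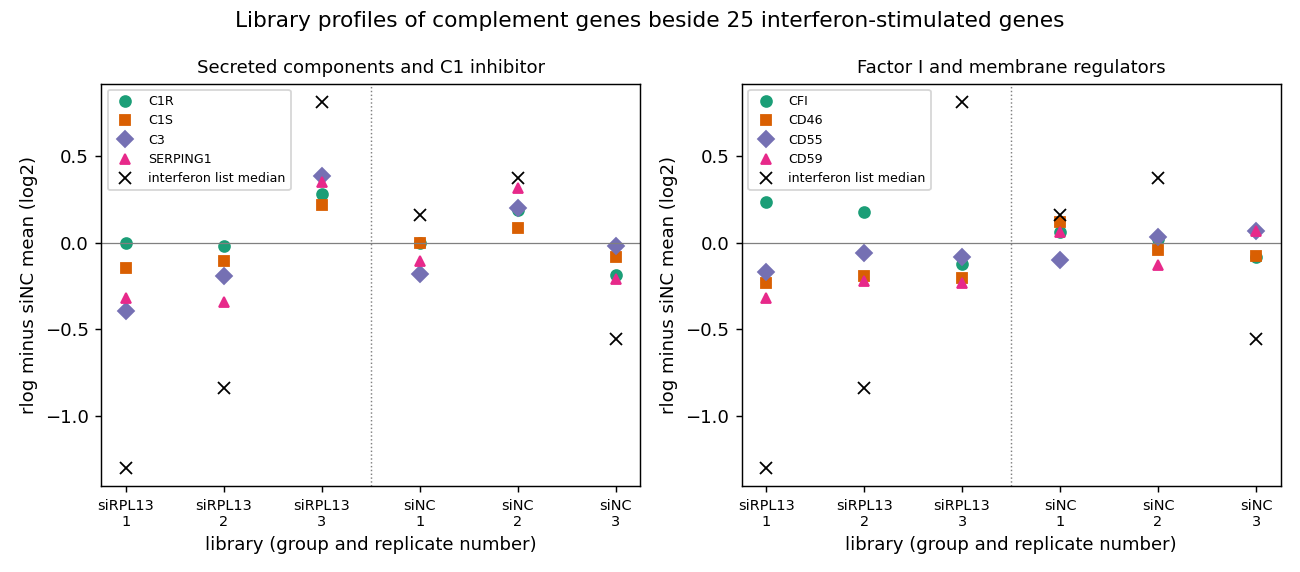
Value of each library as rlog minus the siNC mean of the gene (vertical axis, log2), with the 3 siRPL13 libraries left of the 3 siNC libraries; coloured points are C1R, C1S, C3 and SERPING1 (left panel) or CFI, CD46, CD55 and CD59 (right panel), and crosses the median of 25 interferon-stimulated genes. In the library labelled siRPL13 replicate 3, C3 lies at 0.38 and SERPING1 at 0.35, while CD46 lies at -0.20 and CD59 at -0.23.

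Spread between libraries set C3 and SERPING1 apart from the rest. Their SD over the 6 libraries, 0.28 for C3 and 0.31 for SERPING1, exceeded that of 97.4% and 97.7% of genes within 0.5 rlog of the same mean level. CD55, with an SD of 0.09, exceeded 43.7% of such genes, and the other 5 members lay between 77.0% and 88.7%. For the 3 members with the largest SD the nearest gene profiles were sought by root mean square difference of centred rlog values over the 6 libraries, among 12847 other genes. SERPING1 was nearest to IGFBP5 (0.05), CSF1 (0.05) and HES7 (0.07), C3 to DDO (0.05), SEMA6B (0.06) and MSX1 (0.06), and C1R to an unnamed gene, ENSG00000242588 (0.05), SMCR8 (0.05) and MDK (0.05).

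Cytokine signalling genes that act upstream of complement transcription in many cells were read from a list of 23, all tested. In the 5-library comparison 7 fell and 2 rose, where 10.7% of all genes tested fell and 8.42% rose, and the median log2 difference of the list was -0.10. STAT2, a transcription factor activated by interferon receptors, fell by 0.82 ± 0.11 (SE, log2). SOCS1, a feedback inhibitor of that pathway, fell by 0.44 ± 0.13 and IRF9, the DNA-binding partner of STAT2, by 0.38 ± 0.07. Adjusted p-values of these 3 genes lay between 0.00111 and 0.0334 (limma). With all 6 libraries 0 of the 23 passed, 0% of all genes being called. The 6-library differences were -0.44 ± 0.28 for STAT2, -0.12 ± 0.26 for SOCS1 and -0.26 ± 0.10 for IRF9. STAT2 stood at 11.12, 11.27 and 12.34 rlog in siRPL13 replicates 1 to 3, against 12.11, 12.19 and 11.74 in siNC, so that the library labelled siRPL13 replicate 3 was its highest. SOCS1 no longer passed when siNC replicate 2 was left out (adjusted p 0.0723), nor SOCS1 and IRF9 without siRPL13 replicate 1 (0.262 and 0.0933). SOCS1 was also lost without siRPL13 replicate 2 (adjusted p 0.0847, limma).

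Among 54 other complement genes 23 had a row and 14 were tested. The C1q chains (C1QA, C1QB and C1QC), C2, C4A and C4B matched no row and were not analysed here. In the 5-library comparison 4 of the 14 rose, where 8.42% of all genes tested rose, and 1 fell, where 10.7% of all genes fell. The median log2 difference was 0.04, and 0 passed with all 6 libraries. Those that rose included the complement inhibitor SUSD4, CSMD2, a membrane protein of CUB and sushi domains, and PTX3, a pentraxin that binds C1q.

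SUSD4 stood at 8.53, 8.33 and 7.91 rlog in siRPL13 replicates 1 to 3, against 7.97, 7.93 and 7.92 in siNC. It rose by 0.49 ± 0.08 (SE, log2) in the 5-library comparison (adjusted p 0.00295, limma), and the library labelled siRPL13 replicate 3 lay at the siNC level. CSMD2 had the same arrangement, at 10.02, 10.10 and 9.82 in siRPL13 replicates 1 to 3, against 9.80, 9.79 and 9.84 in siNC. It rose by 0.25 ± 0.06 in the 5-library comparison (adjusted p 0.0140, limma). Over 6 libraries the log2 differences were 0.32 ± 0.14 for SUSD4 and 0.17 ± 0.08 for CSMD2.

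PTX3 stood at 7.93, 7.82 and 7.81 rlog in siRPL13, against 7.37, 7.64 and 7.63 in siNC. It rose by 0.33 ± 0.09 in the 5-library comparison (adjusted p 0.0347, limma), and its 6-library difference was 0.31 ± 0.09. As with CD46 and CD59 the groups did not overlap, here with siRPL13 above, which held for 6.92% of all genes tested. The calls for CSMD2 and PTX3 were lost without either remaining siRPL13 library (adjusted p 0.102 to 0.285, limma).

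C1RL, a C1r-like protease gene that overlaps C1R, was the member of that list that fell. Its rlog values were 7.41, 7.49 and 7.89 in siRPL13 replicates 1 to 3, against 7.92, 8.0 and 7.73 in siNC. C1RL fell by 0.43 ± 0.09 (SE, log2) in the 5-library comparison (adjusted p 0.00866, limma), whereas the difference of C1R there was -0.01 ± 0.10. Over 6 libraries the C1RL difference was -0.29 ± 0.13. The calls for C1RL and SUSD4 were lost without siRPL13 replicate 1 (adjusted p 0.122 and 0.0825, limma).

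CLU and C1QBP had the highest mean rlog of that list together with CSMD2. CLU, which encodes clusterin, an inhibitor of the terminal pathway, stood at 12.40, 12.36 and 12.46 in siRPL13, against 12.41, 12.50 and 12.39 in siNC, with a 5-library difference of -0.06 ± 0.05 (adjusted p 0.489, limma) and overlapping groups. C1QBP, a mitochondrial protein that also binds C1q, stood at 13.18, 13.16 and 13.12 in siRPL13, against 13.05, 13.09 and 13.11 in siNC. Its groups were apart by a margin of 0.003, and its 5-library difference of 0.09 ± 0.05 had an adjusted p of 0.235 (limma).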

How the data were processed

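RNA of 6 cultures (3 siRPL13, 3 siNC) was sequenced from 1.5 µg of total RNA each. The deposited values are rlog values on the log2 scale, 1 per Ensembl gene and library, a unit read from the table's name and its values. Trimmomatic 0.33, TopHat, HTSeq 0.6.1p1, DESeq2 and build GRCh38.p7 are named, without roles, per the submitters' processing notes; no source used here gives the strandedness. Read depth per library is unknown, and the median over the 15327 genes tested was 9.12 to 9.13 in every library.

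Symbols came from a table of current gene names (20499 of 21429 identifiers) and GENCODE 29 (20608), which also gave positions and union exon lengths; 821 identifiers were in neither. A gene was tested where its rlog averaged 3 or more in the 6 libraries. Two-sided tests came from limma 3.58.1 (R 4.3.3), by linear models with variances moderated along a trend. The p-values were adjusted by Benjamini-Hochberg over the genes tested, and the threshold was 0.05. No count model was used, since the values are not counts. The same fit without the library labelled siRPL13 replicate 3 is the 5-library comparison. Alternatives were other filters, quantile scaling, median centring, eBayes without and with a robust trend, library weights, the replicate number as a block, and leaving out each library. The fit was checked on simulated data in which every siRPL13 library carried the same change. That check does not cover a library that differs from its group, as the library labelled siRPL13 replicate 3 did for RPL13. Among the genes tested, no pair of libraries shared an identical value for a gene (0 in each pair).

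The members, lists and the 5-library comparison were chosen with earlier results of these data known. Some results past the threshold are not reported here. Named genes are the members, RPL13, other complement genes past the threshold and the 3 with the highest mean, up to 4 cytokine signalling genes past the threshold with the largest differences, and the 3 nearest profiles of each of the 3 members with the largest SD; the glioma and leukocyte markers were named as checks after their values were seen. Hepatocyte and endothelial marker lists had 1 and 3 genes tested, with summed levels of 4.03 and 11.84 to 12.09 in siRPL13, against 3.96 to 4.04 and 11.80 to 11.95 in siNC. Figures were drawn with matplotlib 3.10.9.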

Additional observations from a re-analysis of the deposited data

How the results depend on the processing

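With all 6 libraries, 0 genes were higher, 0 lower and 0 of the 8 complement genes past the threshold under every alternative except library weights (2601 higher, 2708 lower, 3 complement genes) and leaving out the library labelled siRPL13 replicate 3; over the leave-one-out fits the counts ran from 0 to 1291 higher, from 0 to 1642 lower and from 0 to 3 complement genes. The library weight of the library labelled siRPL13 replicate 3 was 0.163 and that of siRPL13 replicate 2 was 7.19. In the 5-library comparison (1291 higher, 1642 lower, 3 complement genes), leaving out a further library gave 102 to 1734 higher, 141 to 2014 lower and 0 to 4 complement genes. Without a filter on low values and without a variance trend 1 complement gene, CD59, passed, and library weights gave 2007 genes higher, 2291 lower and 4 complement genes (C3 beside CD46, CD59 and CFI). The sign of the difference changed for C1R with library weights (0.0461, against -0.0109), and over the leave-one-out fits it ran from -0.10 to 0.0834 for C1R in the 5-library comparison and, with all 6 libraries, from -0.0109 to 0.18 for C1R, -0.125 to 0.0576 for C1S, -0.29 to 0.10 for C3 and -0.33 to 0.0537 for SERPING1. The directions of CD46, CD55, CD59 and CFI were kept in both comparisons under all alternatives run. The causes of these changes were not tested.

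Same-numbered libraries of the 2 groups did not deviate together. The correlation of deviations from the group means across genes was 0.08, -0.43 and -0.33 for numbers 1 to 3. No library correlated best with the library of its own number in the other group. With the number as a replicate block, 0 genes were called with all 6 libraries. In the 5-library comparison the block gave 1326 genes higher and 1717 lower, and 4 complement genes: CD46, CD59, C3 (-0.30, adjusted p 0.0145, limma) and SERPING1 (-0.43, adjusted p 0.000219), whereas CFI (0.16, adjusted p 0.126) did not pass. That fit has a single residual degree of freedom per gene. There siNC replicate 3 stands alone in its block and adds nothing to the difference. The differences of the block fit therefore equal those of the 5-library comparison without siNC replicate 3. The unknown read depth limits what can be said of C1R and C1S, the members with the lowest rlog values.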
